A study of Homo sapiens with 12 samples.

Results

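ATF4 is the transcription factor of the integrated stress response (ISR). Around this response, 53 genes were followed in SU-DHL-4 cells, among the 46863 genes of the deposited count table. Whether each of the 53 responds to ATF4 in these cells was not tested. Of these, 32 were chosen by name as ISR factors, enzymes of amino acid synthesis and amino acid transporters, together with the tRNA exporter XPOT. The other 21 encode the cytosolic tRNA synthetases, which the choice names only as a class. The genes were also chosen from measured values, since a fall of CHAC1 and ATF3 in these libraries was part of the choice. Values of CHAC1 and ATF3 are therefore given as a description, without a test, and neither gene enters a count of calls below.

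SU-DHL-4 is an established line of diffuse large B-cell lymphoma (DLBCL), labelled wt and grown from a peritoneal effusion, so that every group shares 1 genetic background. Cells were exposed for 72 h to the vehicle DMSO, to Ento (Entospletinib, which inhibits the tyrosine kinase SYK, 1 µM), to AZD (AZD5153, which inhibits BET proteins and binds in a bivalent manner, 0.01 µM) or to the combination of these doses (Ento+AZD). Polyadenylated RNA of 3 libraries per group was sequenced, described as biological replicates and numbered 1 to 3 in every group. The comparisons asked what each agent and their combination changed relative to DMSO, and what the combination changed relative to each agent.

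Total counts per library lay between 18121993 and 24675830, and 3 counts corresponded to 0.118 to 0.169 CPM, TMM-normalized counts put on one common library size. All 6 B-cell and all 3 germinal-centre markers were detected in every library. CD3D, CD2, KRT8, KRT18 and COL1A2 held no count, while the fibroblast list reached a summed 37.0 to 126 CPM through DCN, with a mean of 77 CPM with DMSO and 56.4 CPM with Ento+AZD. DCN was lower with Ento+AZD, by 0.45 ± 0.10 on the log2 scale (quasi-likelihood test of edgeR, adjusted p = 0.00283), and with AZD, by 0.55 ± 0.10 (adjusted p = 0.00239). Of the 3 T-cell markers, CD3E held 9 to 51 counts in every library and was lower with AZD, by 1.02 ± 0.30 (adjusted p = 0.0241), with −0.68 ± 0.29 for Ento+AZD (adjusted p = 0.0750). The part of DCN and CD3E in the results was not tested.

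In the ISR, kinases that sense amino acid shortage, misfolded proteins, missing haem or double-stranded RNA phosphorylate the initiation factor eIF2. General translation then falls, while translation of ATF4 rises through the upstream open reading frames of its mRNA. ATF4 binds DNA as a dimer with C/EBP proteins or other bZIP partners and induces genes of amino acid uptake, amino acid synthesis and tRNA charging. CHOP (DDIT3), TRIB3 and GADD34 (PPP1R15A) belong to its later output, of which TRIB3 restrains ATF4 and GADD34 directs the dephosphorylation of eIF2. Because ATF4 is controlled largely through translation, its mRNA level is not a measure of its protein.

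The sequence that ATF4 shares with C/EBP partners carries the core TGATGNAA, where N is any base. This core was searched on both strands of RefSeq promoters (250 bases before to 50 after each start site, GRCh38.p14), and 43 of the 53 genes had an entry. It was present in 15 of the 43, CHAC1 and ATF3 included (34.9%), against 1217 of 27305 genes with an entry (4.46%) and 1270 of 35116 windows (3.62%). The following stretches are shown because they hold the core in 7 cytosolic synthetases, in the enzyme ASNS, the transporter SLC1A5 and the factor CEBPG, and in CHAC1 and ATF3. Each is written 5′ to 3′ on the strand of its gene, with the core in capitals (TTNCATCA is the core on the opposite strand).
AARS1, chr16:70289675-70289704, minus strand: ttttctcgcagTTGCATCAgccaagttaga
CARS1, chr11:3057407-3057436, minus strand: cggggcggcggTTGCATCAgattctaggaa
TARS1, chr5:33440956-33440985, plus strand: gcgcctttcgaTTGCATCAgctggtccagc
GARS1, chr7:30594834-30594863, plus strand: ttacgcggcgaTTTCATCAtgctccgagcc
IARS1, chr9:92293692-92293721, minus strand: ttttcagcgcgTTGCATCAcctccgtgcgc
MARS1, chr12:57488053-57488082, plus strand: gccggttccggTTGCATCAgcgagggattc
NARS1, chr18:57621804-57621833, minus strand: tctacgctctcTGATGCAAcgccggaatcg
ASNS, chr7:97872458-97872487, minus strand: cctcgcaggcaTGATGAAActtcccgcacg
SLC1A5, chr19:46784893-46784922, minus strand: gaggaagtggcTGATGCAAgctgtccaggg
CEBPG, chr19:33374060-33374089, plus strand: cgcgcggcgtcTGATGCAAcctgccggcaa
CHAC1, chr15:40953251-40953280, plus strand: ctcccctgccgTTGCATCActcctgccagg
ATF3, chr1:212565205-212565234, plus strand: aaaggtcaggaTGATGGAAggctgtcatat
SLC1A4, SLC3A2 and SLC7A1, which encode transporters, held the core as well. NUPR1, PSPH, SHMT2, PYCR1, SLC7A11, LARS1, TARS3, VARS1 and YARS1 were among those without an entry. A match is a description of the letters and not a binding site.

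With DMSO, the level per kb of transcript was highest for ATF4, at 282 ± 32.4 CPM per kb (SD, n = 3), and for SHMT2, the mitochondrial serine hydroxymethyltransferase, at 228 ± 58.2 CPM per kb, which do not differ beyond their spread. The synthetases for glutamine and glycine followed, QARS1 with 121 ± 10.3 CPM per kb and GARS1 with 116 ± 9.91 CPM per kb, again within their spread. DDIT4, which encodes REDD1, an inhibitor of mTORC1, had 95.8 ± 30.1 CPM per kb. At the other end CHAC1 had 1.68 ± 0.824, TARS3 1.16 ± 0.275 and ATF3 0.50 ± 0.26 CPM per kb. Asparagine synthetase (ASNS), a textbook ATF4 target, had only 2.28 ± 0.544 CPM per kb. PHGDH, the first enzyme of serine synthesis, held 1 count in all 12 libraries together, the secreted glycoprotein gene STC2 held none and the stress regulator NUPR1 held 3, while VLDLR, a lipoprotein receptor, had 0.0492 CPM per kb with DMSO. These 4 genes did not pass the filter on low counts, so that 49 of the 53 were tested, 47 of them besides CHAC1 and ATF3.

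**Figure D1:**
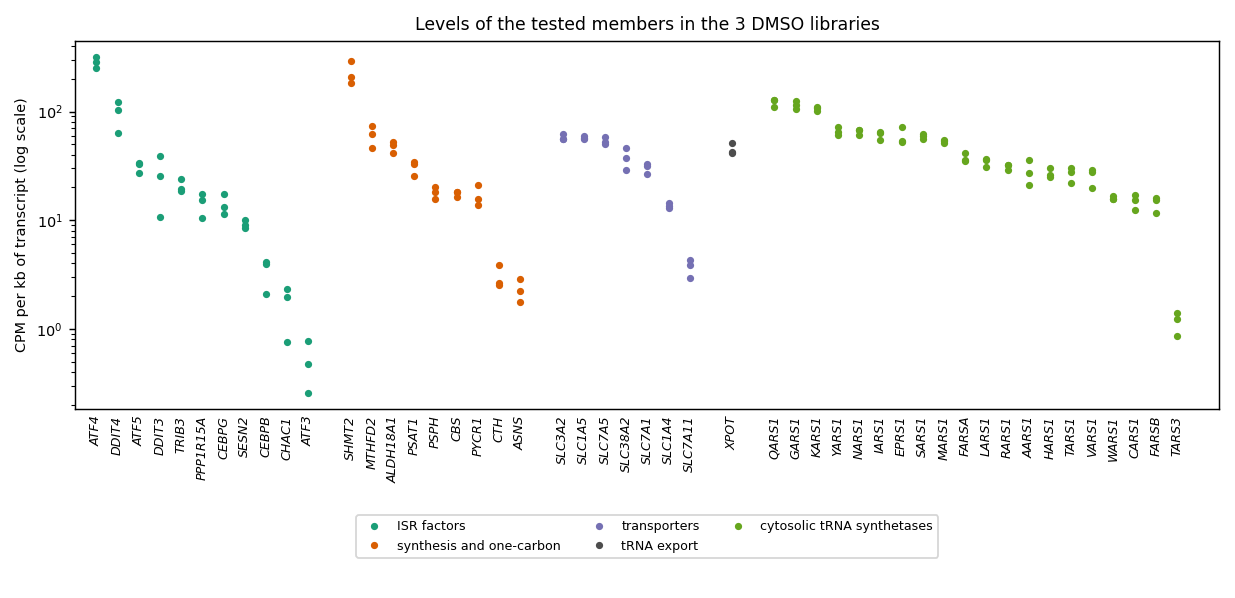
Level of 48 tested genes in the 3 DMSO libraries (points), as CPM per kb of transcript on a log axis, grouped by role and ordered by mean. ATF4 (282 CPM per kb on average) and SHMT2 (228) lie at the top, and ATF3 (0.50) at the bottom, while all synthetases shown but TARS3 (1.16) exceed 10 CPM per kb in every library.

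CHAC1, which encodes an enzyme that degrades glutathione, and ATF3, a bZIP factor induced by stress, were the genes whose fall guided the choice. CHAC1 had 89, 25 and 76 counts in DMSO replicates 1 to 3 and 49, 33 and 17 counts with Ento. It had 53, 5 and 10 counts with AZD and 11, 5 and 3 counts with Ento+AZD. All 3 Ento+AZD libraries lay below all DMSO libraries, while replicate 1 with AZD was within the DMSO range. The fitted log2 fold change of CHAC1 against DMSO was −0.74 with Ento, −1.44 with AZD and −3.02 with Ento+AZD, and −2.41 with AZD when AZD replicate 1 was left out. ATF3 had 23, 11 and 38 counts with DMSO, 11, 6 and 2 with Ento, 7, 0 and 1 with AZD and 5, 4 and 3 with Ento+AZD. At these depths all 3 exposures lay below DMSO in CPM without overlap. For Ento the margin was narrow, since Ento replicate 1 and DMSO replicate 2 both held 11 counts and differ only through library size. No order among the exposures can be read from so few counts. The log2 fold change of ATF3 was −1.71 with Ento, −2.94 with AZD and −2.22 with Ento+AZD. It depended on single libraries, with −0.98 for Ento without DMSO replicate 3, −4.88 for AZD without AZD replicate 1 and −1.48 for Ento+AZD without DMSO replicate 3.

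Under Ento+AZD, transcripts of all 7 amino acid transporters and of both transsulfuration enzymes were lower, as were PSAT1 of serine synthesis and PYCR1 of proline synthesis, with SLC7A11, DDIT4, CTH, CBS and TRIB3 at less than 50% of DMSO. Of the 47 tested genes, 26 were underexpressed and 3 overexpressed (quasi-likelihood test of edgeR, adjusted p under 0.05 after Benjamini-Hochberg correction over 16835 genes), where 20.8% of all genes tested were called lower and 19.2% higher. Their median log2 fold change was −0.34, against 0.010 over all genes. In bulk RNA, fewer cells that express a gene and less RNA per cell cannot be told apart. The DEG rule, which also asks for an absolute log2 fold change over 1, was met by 5 lower genes and 1 higher gene, at 4.89% and 3.43% of all genes. Without the replicate number as a block, 15 genes were called lower and 3 higher. The lower calls lost in that fit were ATF4, CEBPB, CEBPG, PPP1R15A, SHMT2, SLC7A5, SLC1A4, CARS1, EPRS1, GARS1 and TARS1. Their adjusted p ran from 0.0666 for TARS1 to 0.568 for PPP1R15A.

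Single agents changed fewer of these genes. With AZD, 15 of the 47 were lower and 4 higher, where 12.7% and 9.57% of all genes were called. With Ento, 7 were lower and 1 was higher, where 3.66% and 4.66% of all genes were called. The median log2 fold change was −0.13 with AZD and −0.10 with Ento, against 0.0055 and 0.0094 over all genes. The DEG rule left 2 lower genes with AZD (2.53% of all genes lower, 0.659% higher) and 1 with Ento (0.535% lower, 1.1% higher). Without the replicate block, 4 genes were called with AZD and 0 with Ento, where 15 of the 47 had an unadjusted p under 0.05 in the blocked fit and DESeq2 with the block called 10. All 3 exposures were compared with the same DMSO libraries, so these counts are not independent of each other. Leaving out each of the 12 libraries in turn kept the calls of 23 of 29 genes with Ento+AZD, of 8 of 19 with AZD and of 3 of 8 with Ento.

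**Figure D2:**
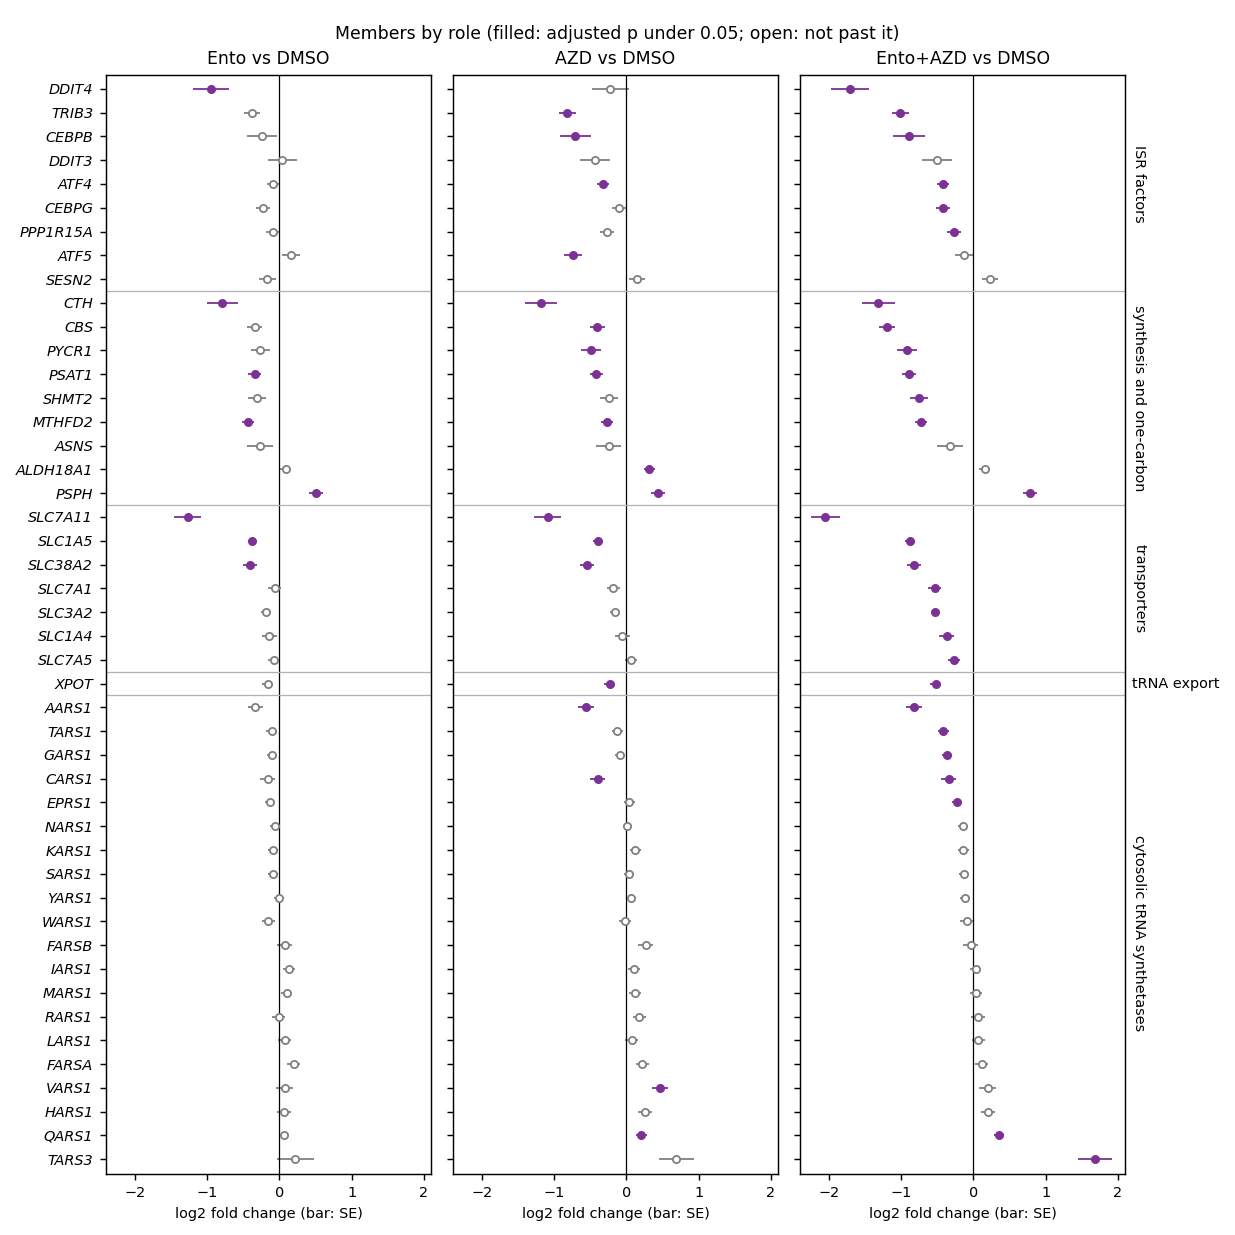
Log2 fold change against DMSO (x axis, bar: SE) of 46 tested genes (y axis) by role, in 1 panel per exposure. Filled points have an adjusted p under 0.05. The right panel holds 25 filled points to the left of 0 and 3 to the right, PSPH, QARS1 and TARS3.

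Among the ISR factors and regulators, 6 of 9 tested genes fell and 0 rose with Ento+AZD (66.7% and 0%, beside 20.8% and 19.2% of all genes). With AZD 4 fell and 0 rose (44.4% and 0%, beside 12.7% and 9.57%). With Ento 1 fell and 0 rose (11.1% and 0%, beside 3.66% and 4.66%). ATF4 itself had 446, 354 and 401 CPM in DMSO replicates 1 to 3, 418, 293 and 436 CPM with Ento, 378, 239 and 360 CPM with AZD and 322, 243 and 336 CPM with Ento+AZD. The Ento+AZD libraries lay below all DMSO libraries, and the single agents overlapped DMSO. The log2 fold change of ATF4 was −0.43 ± 0.08 (SE) with Ento+AZD (edgeR's quasi-likelihood test, adjusted p = 0.00112), −0.32 ± 0.08 with AZD (adjusted p = 0.0148) and −0.08 ± 0.08 with Ento (adjusted p = 0.579). Without the replicate block, the Ento+AZD call (adjusted p = 0.157) and the AZD call (adjusted p = 0.414) of ATF4 were lost. Without AZD replicate 2 the AZD value was −0.25 (adjusted p = 0.105), and the call was lost as well without AZD replicate 3 (adjusted p = 0.0568) or DMSO replicate 2 (adjusted p = 0.0593). Pseudogene copies of ATF4 held 11.7% of the counts of ATF4 and its copies, so that part of its reads may have been assigned elsewhere.

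DDIT4 had 213, 110 and 178 CPM with DMSO, 123, 58.0 and 83.8 CPM with Ento, 327, 69.7 and 96.3 CPM with AZD and 54.2, 44.6 and 46.9 CPM with Ento+AZD. AZD replicate 1 was the highest of all 12 libraries, and the Ento+AZD libraries were the lowest without overlap. DDIT4 fell by 1.71 ± 0.26 on the log2 scale with Ento+AZD (adjusted p = 0.000189) and by 0.95 ± 0.25 with Ento (adjusted p = 0.0342, 0.150 without Ento replicate 1 and above 0.05 without 4 further libraries). With AZD its log2 fold change was −0.22 ± 0.25 (adjusted p = 0.562), and −0.79 (adjusted p = 0.00245) without AZD replicate 1.

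TRIB3, a pseudokinase that binds ATF4, had 45.5, 43.7 and 56.0 CPM with DMSO, 38.3, 37.0 and 36.8 CPM with Ento, 29.8, 28.1 and 24.7 CPM with AZD and 23.7, 26.9 and 21.4 CPM with Ento+AZD. Every exposed library lay below every DMSO library. TRIB3 fell by 1.01 ± 0.12 with Ento+AZD (adjusted p = 2.32e-05) and by 0.82 ± 0.11 with AZD (adjusted p = 0.000532), while its log2 fold change with Ento was −0.37 ± 0.11 (adjusted p = 0.0544).

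Of the C/EBP factors, which pair with ATF4, CEBPB fell by 0.89 ± 0.22 with Ento+AZD (adjusted p = 0.00577, 0.0581 without Ento+AZD replicate 1) and CEBPG by 0.42 ± 0.10 (adjusted p = 0.00318). CEBPB was also lower with AZD, by 0.71 ± 0.22 (adjusted p = 0.0312, 0.170 without AZD replicate 3 and above 0.05 without 3 further libraries). CEBPG had −0.23 ± 0.10 with Ento (adjusted p = 0.161) and −0.10 ± 0.10 with AZD (adjusted p = 0.485). PPP1R15A fell by 0.27 ± 0.10 with Ento+AZD (adjusted p = 0.0370). This call was lost without any of 5 libraries, with an adjusted p of up to 0.143 without Ento+AZD replicate 2. With AZD alone PPP1R15A had a log2 fold change of the same size, −0.27 ± 0.10 (adjusted p = 0.0582). DDIT3 was not past the threshold in any exposure, with −0.50 ± 0.21 for Ento+AZD (adjusted p = 0.0675), −0.44 ± 0.20 for AZD (adjusted p = 0.139) and 0.04 ± 0.20 for Ento (adjusted p = 0.927). Its DMSO libraries alone ran from 9.57 to 35.0 CPM, and MARS1 and MBD6 overlap its exons on the opposite strand.

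ATF5, a related bZIP factor under translational control, was lower with AZD alone. It had 67.3, 54.5 and 66.3 CPM with DMSO and 74.3, 85.0 and 54.6 CPM with Ento, but 41.4, 39.4 and 33.0 CPM with AZD. With Ento+AZD its libraries held 58.8, 61.5 and 53.0 CPM and overlapped DMSO. ATF5 fell by 0.74 ± 0.12 with AZD (adjusted p = 0.00149), and its log2 fold change was 0.16 ± 0.12 with Ento (adjusted p = 0.436) and −0.13 ± 0.12 with Ento+AZD (adjusted p = 0.429). Relative to AZD it was higher with Ento+AZD, by 0.61 ± 0.12 (adjusted p = 0.00819). Exons of IL4I1 and NUP62 overlap it on the opposite strand. SESN2, a sensor of leucine upstream of mTORC1, had log2 fold changes of 0.23 ± 0.11 with Ento+AZD (adjusted p = 0.120), 0.14 ± 0.11 with AZD (adjusted p = 0.386) and −0.16 ± 0.11 with Ento (adjusted p = 0.405).

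Among the enzymes of amino acid synthesis and folate metabolism, 6 of 9 tested genes fell with Ento+AZD and PSPH rose (66.7% and 11.1%, beside 20.8% and 19.2% of all genes). With AZD 5 fell and 2 rose (55.6% and 22.2%, beside 12.7% and 9.57%). With Ento 3 fell and 1 rose (33.3% and 11.1%, beside 3.66% and 4.66%). The transsulfuration pair, which makes cysteine from homocysteine, was among the lowest. CTH, the second of these enzymes, had 139, 115 and 208 counts with DMSO and 90, 62 and 82 counts with Ento. It had 96, 42 and 43 counts with AZD and 61, 47 and 42 counts with Ento+AZD. In CPM every exposed library lay below every DMSO library. CTH fell by 1.32 ± 0.23 with Ento+AZD (adjusted p = 0.000444), by 1.18 ± 0.22 with AZD (adjusted p = 0.00281) and by 0.79 ± 0.21 with Ento (adjusted p = 0.0350, 0.172 without DMSO replicate 3 and above 0.05 without 5 further libraries).

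CBS, the first enzyme of transsulfuration, had 45.4, 40.5 and 45.1 CPM with DMSO and 21.4, 14.3 and 22.7 CPM with Ento+AZD. The Ento and the AZD libraries overlapped DMSO, and those with Ento+AZD lay below it. CBS fell by 1.20 ± 0.11 with Ento+AZD (adjusted p = 7.60e-06). With AZD it fell by 0.40 ± 0.11 (adjusted p = 0.0186, 0.116 without AZD replicate 2 and 0.0705 without DMSO replicate 2). With Ento its log2 fold change was −0.34 ± 0.11 (adjusted p = 0.0666). The table also lists CBSL, a near-identical copy, which held 48.5% of the counts of the pair, so the gene of origin of these reads is uncertain. CBSL fell by 1.10 ± 0.13 with Ento+AZD (adjusted p = 2.57e-05). The sum of the pair was 85.0 ± 4.97 CPM in the DMSO libraries (SD, n = 3) and 39.3 ± 9.18 CPM in the Ento+AZD libraries. It was 68.0 ± 16.1 CPM with Ento and 64.8 ± 18.4 CPM with AZD.

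The serine pathway was split. PSAT1, the aminotransferase of its second step, had 76.3, 56.0 and 72.3 CPM with DMSO, 57.0, 44.3 and 59.8 CPM with Ento, 65.8, 37.2 and 52.0 CPM with AZD and 38.3, 30.6 and 41.2 CPM with Ento+AZD. The single agents overlapped DMSO, and Ento+AZD did not. PSAT1 fell by 0.89 ± 0.10 with Ento+AZD (adjusted p = 1.64e-05), by 0.42 ± 0.09 with AZD (adjusted p = 0.00773) and by 0.34 ± 0.09 with Ento (adjusted p = 0.0382). The AZD call was lost without AZD replicate 2 (adjusted p = 0.0585) or 3 (adjusted p = 0.0672), and the Ento call without any of 7 libraries (adjusted p up to 0.200, without Ento replicate 1).

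PSPH, the phosphatase of the next and last step, moved the other way. It had 36.2, 39.9 and 31.2 CPM with DMSO, 45.7, 54.2 and 53.1 CPM with Ento, 41.4, 56.0 and 48.6 CPM with AZD and 60.4, 62.0 and 62.6 CPM with Ento+AZD. Every exposed library lay above every DMSO library. PSPH rose by 0.79 ± 0.10 on the log2 scale with Ento+AZD (adjusted p = 3.82e-05), by 0.51 ± 0.10 with Ento (adjusted p = 0.00615) and by 0.44 ± 0.10 with AZD (adjusted p = 0.00676, 0.0513 without AZD replicate 2). A copy, PSPHP1, held 2.93% of the counts of the pair.

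SHMT2 and MTHFD2, which pass a carbon unit from serine to folate in mitochondria, fell by 0.75 ± 0.13 (adjusted p = 0.000367) and 0.73 ± 0.08 (adjusted p = 2.62e-05) with Ento+AZD. MTHFD2 was lower with Ento, by 0.43 ± 0.08 (adjusted p = 0.00741, 0.0565 without Ento replicate 1), and with AZD, by 0.27 ± 0.08 (adjusted p = 0.0342, 0.248 without AZD replicate 3 and above 0.05 without 2 further libraries), while SHMT2 was not past the threshold with either agent (adjusted p = 0.147 and 0.175). In the proline pathway, PYCR1, which catalyses the last step, fell by 0.92 ± 0.14 with Ento+AZD (adjusted p = 0.000189). It also fell by 0.49 ± 0.14 with AZD (adjusted p = 0.0223, 0.141 without AZD replicate 2 and above 0.05 without 3 further libraries), with −0.26 ± 0.14 for Ento (adjusted p = 0.255).

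ALDH18A1, which catalyses the first steps from glutamate to proline, did not follow PYCR1. It had 138, 175 and 166 CPM with DMSO, 156, 174 and 178 CPM with Ento, 183, 201 and 209 CPM with AZD and 170, 165 and 197 CPM with Ento+AZD. Only the AZD libraries lay above all DMSO libraries, and ALDH18A1 rose by 0.31 ± 0.08 with AZD (adjusted p = 0.0104), with 0.16 ± 0.08 for Ento+AZD (adjusted p = 0.117) and 0.09 ± 0.08 for Ento (adjusted p = 0.505). ASNS had a log2 fold change of −0.33 ± 0.18 with Ento+AZD (adjusted p = 0.158), −0.24 ± 0.18 with AZD (adjusted p = 0.343) and −0.27 ± 0.18 with Ento (adjusted p = 0.371). It rested on 1218 counts in all libraries together, and copies of ASNS held 22.4% of the counts of the gene and its copies.

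**Figure D3:**
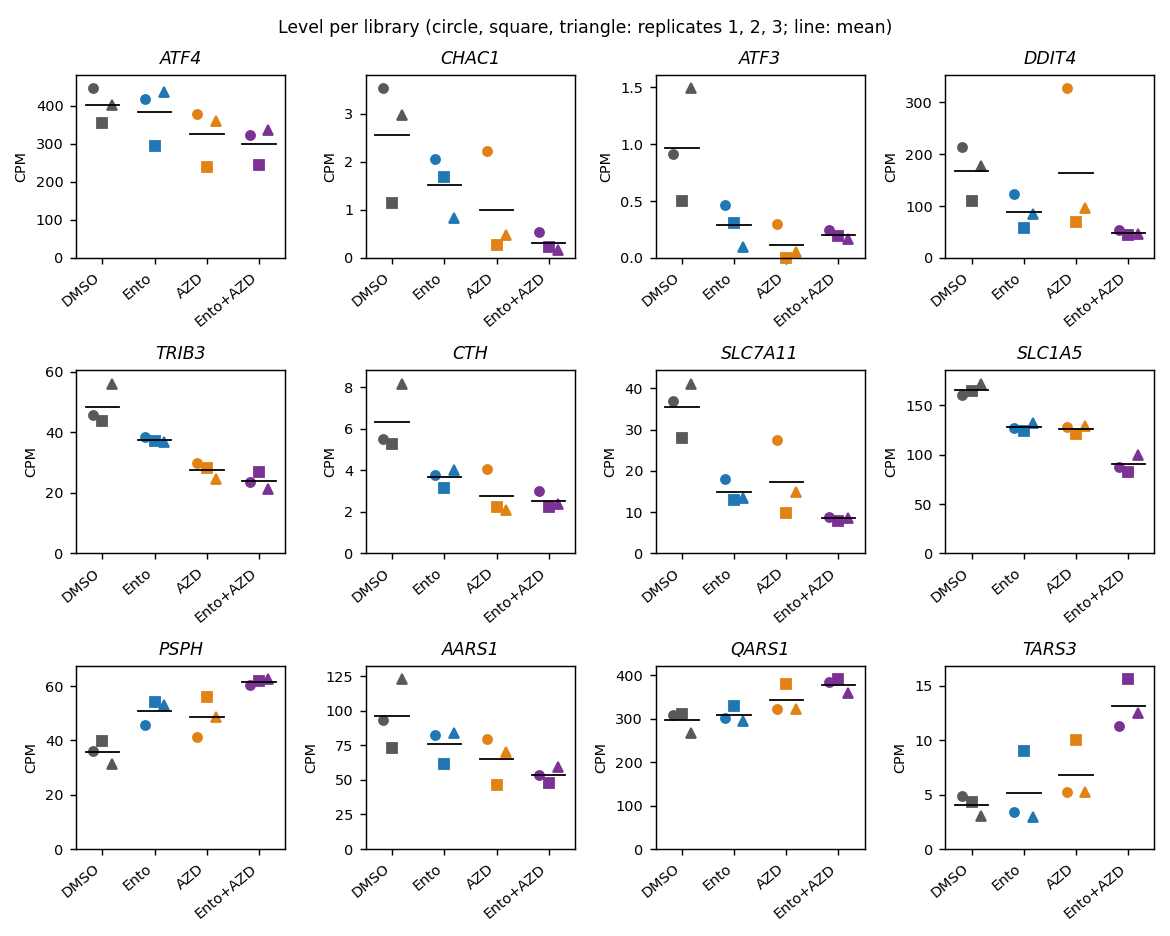
CPM (y axis, from 0) of 12 genes in every library by exposure group (x axis), where circles, squares and triangles are replicates 1, 2 and 3 and lines are means. SLC7A11 runs from a mean of 35.4 CPM with DMSO to 8.51 CPM with Ento+AZD, PSPH from 35.8 to 61.6 CPM, and AZD replicate 1 stands above the other AZD libraries for DDIT4, CHAC1 and SLC7A11.

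All 7 amino acid transporters were lower with Ento+AZD (100%, beside 20.8% of all genes). With AZD 3 fell (42.9%, beside 12.7%) and with Ento 3 fell (42.9%, beside 3.66%). SLC7A11, the cystine and glutamate exchanger xCT that supplies cysteine for glutathione, had the largest change of the 47 genes against DMSO with Ento+AZD and with Ento. It had 37.0, 28.1 and 41.1 CPM with DMSO, 18, 12.9 and 13.5 CPM with Ento, 27.6, 9.73 and 14.8 CPM with AZD and 8.95, 7.96 and 8.63 CPM with Ento+AZD. Each exposed group lay below DMSO without overlap, by a narrow margin for AZD replicate 1. SLC7A11 fell by 2.05 ± 0.20 with Ento+AZD (adjusted p = 8.99e-06), by 1.27 ± 0.19 with Ento (adjusted p = 0.00111) and by 1.09 ± 0.19 with AZD (adjusted p = 0.00171). Leaving out any single library kept these 3 calls. Without the replicate block, the SLC7A11 calls with Ento (adjusted p = 0.123) and AZD (adjusted p = 0.0902) were lost. SLC7A11-AS1 has exons on the opposite strand of SLC7A11, which lies at chr4:138164097-138242349 (GENCODE v44, GRCh38).

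SLC1A5, a transporter of glutamine and other neutral amino acids, had a narrow spread within groups. It had 160, 164 and 172 CPM with DMSO, 127, 124 and 132 CPM with Ento, 128, 121 and 129 CPM with AZD and 87.7, 82.8 and 100.0 CPM with Ento+AZD. None of the exposed groups overlapped DMSO, and Ento+AZD did not overlap either agent. SLC1A5 fell by 0.88 ± 0.07 with Ento+AZD (adjusted p = 2.41e-06), by 0.39 ± 0.07 with AZD (adjusted p = 0.00185) and by 0.37 ± 0.07 with Ento (adjusted p = 0.00502), and these calls held without each of the 12 libraries. Its Ento call was lost without the replicate block (adjusted p = 0.107). SLC38A2, a sodium-coupled carrier of neutral amino acids, fell by 0.82 ± 0.10 with Ento+AZD (adjusted p = 2.64e-05), by 0.55 ± 0.10 with AZD (adjusted p = 0.00183) and by 0.40 ± 0.10 with Ento (adjusted p = 0.0185, 0.134 without Ento replicate 2 and 0.0815 without Ento replicate 1).

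The other 4 transporters passed the threshold only with Ento+AZD among the exposures against DMSO, which does not show that the exposures differ. SLC7A1, the carrier of cationic amino acids, fell by 0.54 ± 0.09 (adjusted p = 0.000442) and SLC3A2, the heavy chain that SLC7A11 and SLC7A5 share, by 0.53 ± 0.07 (adjusted p = 4.81e-05). SLC1A4, a carrier of alanine, serine and cysteine, fell by 0.37 ± 0.11 (adjusted p = 0.0121, 0.0803 without DMSO replicate 2 and 0.0642 without Ento+AZD replicate 1). SLC7A5, the LAT1 carrier of large neutral amino acids, fell by 0.27 ± 0.08 (adjusted p = 0.0129, 0.0751 without Ento+AZD replicate 2 and 0.0615 without DMSO replicate 2). XPOT, which exports tRNA from the nucleus, fell by 0.52 ± 0.08 with Ento+AZD (adjusted p = 0.000131). With AZD XPOT fell by 0.23 ± 0.08 (adjusted p = 0.0443, 0.267 without AZD replicate 3 and above 0.05 without 8 further libraries). With Ento its log2 fold change was −0.16 ± 0.08 (adjusted p = 0.214). Copies held 7.61% of the counts of XPOT and its copies, 4.04% for PSAT1 and 3.47% for MTHFD2.

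The cytosolic tRNA synthetases, which load amino acids onto their tRNAs, had calls in both directions. Of 21 genes, 6 fell and 2 rose with Ento+AZD (28.6% and 9.52%, beside 20.8% and 19.2% of all genes), with a median log2 fold change of −0.09. With AZD, 2 fell and 2 rose (9.52% each, beside 12.7% and 9.57% of all genes), with a median of 0.07. With Ento, 0 of 21 were called in edgeR's quasi-likelihood test and 2 had an unadjusted p under 0.05, with a median of −0.01. The shares with AZD were thus close to those over all genes.

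AARS1, which loads alanine, had the largest fall of the class. It had 93.1, 72.9 and 123 CPM with DMSO, 82.7, 61.2 and 84.0 CPM with Ento, 79.6, 46.1 and 69.9 CPM with AZD and 53.4, 47.6 and 59.5 CPM with Ento+AZD. AARS1 fell by 0.82 ± 0.11 with Ento+AZD (adjusted p = 6.76e-05) and by 0.56 ± 0.11 with AZD (adjusted p = 0.00331), while Ento gave −0.33 ± 0.11 (adjusted p = 0.0761). Also lower with Ento+AZD were TARS1 (threonine) by 0.42 ± 0.08, GARS1 (glycine) by 0.36 ± 0.07, CARS1 (cysteine) by 0.34 ± 0.10 and EPRS1 (glutamate and proline) by 0.23 ± 0.07, with an adjusted p from 0.000783 for TARS1 to 0.0242 for EPRS1. CARS1 was lower with AZD too, by 0.40 ± 0.10 (adjusted p = 0.0157, 0.0983 without AZD replicate 3 and above 0.05 without 2 further libraries). The Ento+AZD calls of CARS1 and EPRS1 were lost without any of 3 and 5 libraries, with an adjusted p of up to 0.119 and 0.0923 without DMSO replicate 3.

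QARS1, which loads glutamine, rose. It had 310, 312 and 267 CPM with DMSO, 301, 330 and 294 CPM with Ento, 323, 381 and 323 CPM with AZD and 385, 391 and 358 CPM with Ento+AZD. The AZD and Ento+AZD libraries lay above all DMSO libraries, and the Ento libraries overlapped them. QARS1 was higher by 0.35 ± 0.07 with Ento+AZD (adjusted p = 0.00121) and by 0.21 ± 0.07 with AZD (adjusted p = 0.0443, 0.206 without AZD replicate 2 and above 0.05 without 7 further libraries).

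TARS3, a paralogue of the threonine synthetase TARS1 on chr15:101653596-101724473, had the largest increase of the 47 genes. It had 122, 94 and 76 counts with DMSO, 81, 176 and 59 counts with Ento, 124, 187 and 109 counts with AZD and 230, 327 and 222 counts with Ento+AZD. In CPM both AZD and Ento+AZD lay above DMSO without overlap, and Ento replicate 2 stood above its group. TARS3 was 3.22-fold higher with Ento+AZD, or 1.69 ± 0.24 on the log2 scale (adjusted p = 9.46e-05), with 0.69 ± 0.24 for AZD (adjusted p = 0.0552) and 0.22 ± 0.25 for Ento (adjusted p = 0.634). Its level stayed low beside TARS1, with 1.16 CPM per kb for TARS3 and 26.7 CPM per kb for TARS1 with DMSO, and the annotation places exons of an unnamed gene on its opposite strand.

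VARS1, which loads valine, had 80.6, 115 and 118 CPM with DMSO, 99.9, 109 and 121 CPM with Ento, 130, 129 and 174 CPM with AZD and 120, 95.7 and 144 CPM with Ento+AZD. Only the AZD libraries exceeded all DMSO libraries. VARS1 rose by 0.46 ± 0.11 with AZD (adjusted p = 0.0119, 0.0676 without AZD replicate 3), with 0.20 ± 0.12 for Ento+AZD (adjusted p = 0.191). FARSA, FARSB, HARS1, IARS1, KARS1, LARS1, MARS1, NARS1, RARS1, SARS1, WARS1 and YARS1 passed the threshold in no exposure against DMSO. With Ento+AZD their log2 fold changes ran from −0.15 for NARS1 to 0.20 for HARS1.

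The core TGATGNAA of the stretches above was in 7 of the 16 synthetases with a promoter entry. Of these 7, AARS1, CARS1, TARS1 and GARS1 were lower with Ento+AZD, while IARS1 (0.03 ± 0.08, adjusted p = 0.811), MARS1 (0.04 ± 0.08, adjusted p = 0.751) and NARS1 (−0.15 ± 0.07, adjusted p = 0.0830) were not past the threshold. Of the 9 without the core, EPRS1 was lower and QARS1 higher. Over all tested genes with an entry, 31.9% of those with the core and 24.0% of those without it were lower. The number of synthetases is too small to read an association from these counts.

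The mitochondrial tRNA synthetases, from a separate list of 17 genes, gave 3 higher and 0 lower with Ento+AZD and 3 higher and 0 lower with AZD in edgeR's quasi-likelihood test, with 5 genes at an unadjusted p under 0.05 in each comparison. The share higher was 17.6% in both, beside 19.2% of all genes with Ento+AZD, which is close to it, and 9.57% with AZD. MARS2 (0.43 ± 0.09), EARS2 (0.38 ± 0.09) and CARS2 (0.35 ± 0.08) were the ones higher with Ento+AZD. Whether the mitochondrial and cytosolic classes differ was not tested. Of the scaffolds of the cytosolic synthetase complex, AIMP2 was higher by 0.59 ± 0.15 (adjusted p = 0.00522) and EEF1E1 lower by 0.34 ± 0.12 (adjusted p = 0.0357), and AIMP1 was not past the threshold.

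**Figure D4:**
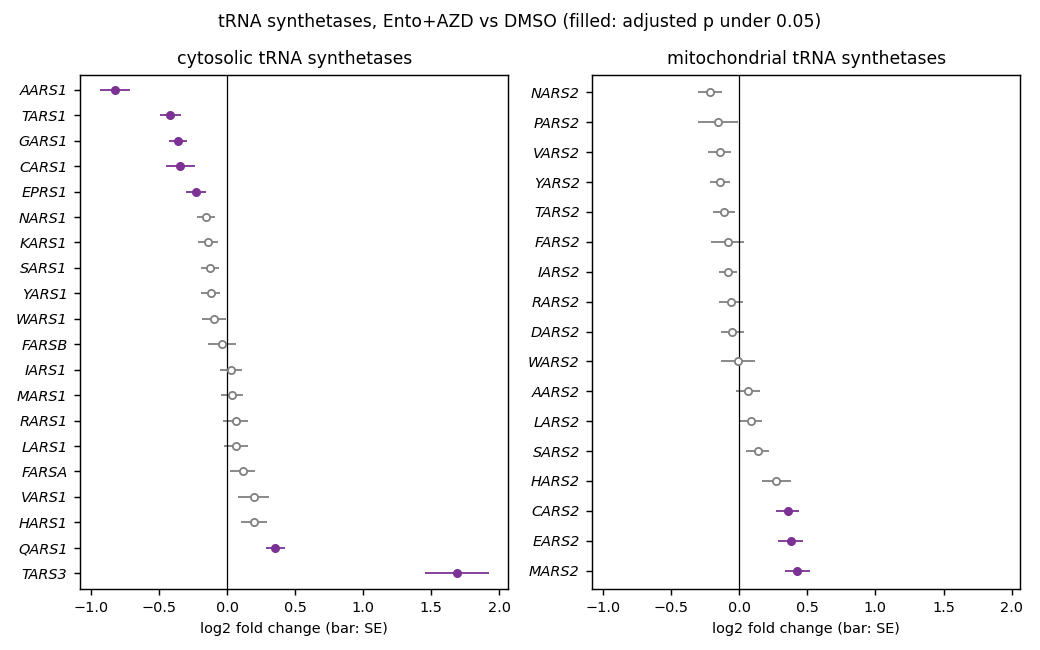
Log2 fold change of Ento+AZD against DMSO (x axis, bar: SE) for 20 cytosolic (left) and 17 mitochondrial (right) tRNA synthetases (y axis). Filled points have an adjusted p under 0.05, and they are 5 lower and 2 higher genes on the left and 3 higher genes on the right.

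Further genes of the pathway were read from lists outside the 53. Of 16 genes for eIF2 kinases, eIF2 and eIF2B, 4 were higher and 4 lower with Ento+AZD (25% each, near the 19.2% and 20.8% of all genes). EIF2AK2, which encodes the kinase PKR, fell by 0.78 ± 0.09 (adjusted p = 2.16e-05), PPP1R15B, a partner of the eIF2 phosphatase, fell by 0.53 ± 0.08 (adjusted p = 0.000127), and EIF2B4, a subunit of the exchange factor of eIF2, rose by 0.45 ± 0.10 (adjusted p = 0.00300). Of 19 tested genes reported as further ATF4 or CHOP targets, 6 were lower and 2 higher (31.6% and 10.5%, beside 20.8% and 19.2% of all genes), led by CDKN1A, the CDK inhibitor p21, with −1.89 ± 0.46 (adjusted p = 0.00485), CEBPA with −1.55 ± 0.45 (adjusted p = 0.0141) and JDP2 with −1.31 ± 0.22 (adjusted p = 0.000359). Of 17 genes of the XBP1 and ATF6 branches of the unfolded protein response, 6 were higher and 1 lower (35.3% and 5.88%, beside 19.2% and 20.8% of all genes). The single agents gave similar counts. With AZD 6 were higher and 0 lower (35.3% and 0%, beside 9.57% and 12.7% of all genes). With Ento 5 were higher and 0 lower (29.4% and 0%, beside 4.66% and 3.66%). Ento+AZD had 1 higher and 1 lower relative to Ento, and 2 higher and 0 lower relative to AZD. With Ento+AZD against DMSO, XBP1 rose by 1.70 ± 0.16 (adjusted p = 6.69e-06), the chaperone gene CALR by 0.60 ± 0.12 (adjusted p = 0.00112) and HYOU1 by 0.60 ± 0.11 (adjusted p = 0.000716).

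Adding AZD to Ento lowered 16 of the 47 genes and raised 3 (12.2% and 8.27% of all genes), and 1 higher gene, TARS3, met the DEG rule. CBS fell by 0.85 ± 0.11 (adjusted p = 0.000401), SLC7A11 by 0.78 ± 0.21 (adjusted p = 0.0158, 0.103 without Ento+AZD replicate 1 and above 0.05 without 3 further libraries) and TRIB3 by 0.64 ± 0.12 (adjusted p = 0.00205). TARS3 was higher by 1.46 ± 0.23 (adjusted p = 0.000965), QARS1 by 0.30 ± 0.07 (adjusted p = 0.00858, 0.0538 without Ento replicate 1 and 0.0521 without Ento+AZD replicate 1) and SESN2 by 0.39 ± 0.11 (adjusted p = 0.0255, 0.165 without Ento replicate 3 and above 0.05 without 2 further libraries). ATF4 was lower by 0.34 ± 0.08 (adjusted p = 0.0101, 0.0799 without Ento replicate 3 and 0.0632 without Ento+AZD replicate 1). Without the replicate block 2 genes, both lower, were called.

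Adding Ento to AZD likewise lowered 16 and raised 3 (6.04% and 5.85% of all genes), and 1 lower gene, DDIT4, met the DEG rule. DDIT4 fell by 1.49 ± 0.27 (adjusted p = 0.00449) and by 0.94 without AZD replicate 1, the library with its highest level. CBS fell by 0.80 ± 0.11 (adjusted p = 0.00117) and SLC7A11 by 0.96 ± 0.20 (adjusted p = 0.00951, 0.0711 without Ento+AZD replicate 1 and 0.0530 without AZD replicate 1). TRIB3 (−0.20 ± 0.12, adjusted p = 0.303) and ATF4 (−0.11 ± 0.08, adjusted p = 0.441) were not past the threshold. KARS1, the lysine synthetase, was lower in this comparison by 0.26 ± 0.07 (adjusted p = 0.0351), which was lost without any of 7 libraries (adjusted p up to 0.163). TARS3 was higher by 0.99 ± 0.23 (adjusted p = 0.0136, 0.0751 without AZD replicate 1 and 0.0681 without Ento+AZD replicate 3). ATF5 was higher as well, and so was PSPH, by 0.35 (adjusted p = 0.0311), a call lost without any of 5 libraries (adjusted p up to 0.173, without AZD replicate 1). Without the replicate block 0 genes were called, where 28 of the 47 had an unadjusted p under 0.05 in the blocked fit and DESeq2 with the block called 21.

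Whether the agents together differed from the sum of their single log2 changes was tested as an interaction. In edgeR's quasi-likelihood test 0 of the 47 genes and 0 of 16835 (0%) passed the threshold, and DESeq2 called 0 of the 47. At an unadjusted p under 0.05 there were 8 of the 47, and 1652 of all genes. CBS had the lowest value among these, −0.45 ± 0.16, and TARS3 the highest, 0.77 ± 0.34 (adjusted p = 0.444 and 0.496). A miss of the threshold does not show that the changes add up.

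Compared with each other, a comparison added after the data were seen, Ento and AZD differed in 3 of the 47 genes (8.99% of all genes were higher with Ento and 5.73% lower). ATF5 was higher with Ento by 0.90 ± 0.12 (adjusted p = 0.000226) and TRIB3 by 0.44 ± 0.12 (adjusted p = 0.0185), in 3 of 3 replicate-numbered pairs each. VARS1 was lower with Ento by 0.39 ± 0.11 (adjusted p = 0.0350), in 3 of 3 pairs. How these calls depend on the replicate block or on single libraries was not tested.

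The genes also varied together with the replicate number. In 18 of the 47, replicate 2 was the lowest of the 3 libraries in each of the 4 groups. ATF4, SHMT2, MTHFD2, SLC38A2 and AARS1 were among them. This held for 11.8% of all tested genes. Replicate 1 was lowest in every group for 1 of the 47 and replicate 3 for 0 (3.30% and 9.48% of all tested genes). ATF4 thus ranged from 243 to 336 CPM within Ento+AZD, a spread similar in size to its difference from DMSO. What the replicate number stands for is not stated. The study's model had a batch term that it does not define, and taking the replicate number as this batch was a choice made here. The part of the replicate number in these values was not tested.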

How the data were processed

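The authors enriched polyadenylated RNA, prepared libraries with the NEBNext Ultra II RNA kit and sequenced single reads. Reads were demultiplexed with bcl2fastq 2.19 per the labels, trimmed with CutAdapt through TrimGalore, aligned to GRCh38.p13 and counted per gene with Rsubread. The deposited table holds these raw counts for 46863 gene symbols in 12 libraries, without normalization. How strand and reads matching several genes were handled is not given in the sources used here, so 22 of the 53 genes, which share exon positions with a gene on the opposite strand (GENCODE v44), and genes with near-identical copies are uncertain. A second deposited table of normalized values was not used.

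Genes with low counts were removed with filterByExpr by group, at a minimum count of 10 and a minimum total of 15, and 16835 genes remained. The model of the study was followed in edgeR 4.0.16 (limma 3.58.1, R 4.3.3), with TMM normalization, no intercept, treatment group and replicate number (taken as the batch) over all 12 libraries, the quasi-likelihood F-test, and p-values adjusted over all genes after Benjamini and Hochberg. A call is an adjusted p under 0.05. The SE was obtained by dividing the absolute log2 fold change by the root of F. Levels are CPM after TMM, given with the SD over 3 libraries. Per-library values are counts for genes with few reads and CPM otherwise. Levels per kb use the canonical transcript of GENCODE v44. Scripts were tested on simulated data. One synthetase enters the counts but is not reported here by name or in the plots.

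Libraries of one replicate number deviated together from their group means (r from 0.220 to 0.716 over 18 pairs, median 0.446, prior count 3). Those of different numbers had r from −0.640 to 0.336 over 36 pairs (median −0.243), so the ranges overlap in part. Deviations from a group mean cancel within the group, so the negative median is not separate evidence of pairing. The numbers, given in the labels, were therefore taken as pairing the libraries. Within groups, chi-square values of 9.07 to 54.3 per degree of freedom exceeded sampling noise. The labels call the libraries biological replicates. Where a separate culture is not named, p-values measure the spread left between these libraries after differences between replicate numbers were fitted. They do not measure the full spread within a group.

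The genes, lists and tests were chosen with earlier results of these data known. Values were printed per library for CHAC1, ATF3, ATF4 and the 3 called genes with the highest and the 3 with the lowest log2 fold change of each exposure. CBS, ATF5 and AARS1 were given per library in addition, chosen after their values were seen. The alternatives were no replicate block, DESeq2-type size factors, no filter on low counts, DESeq2 1.42.0, the DEG rule, only the groups compared, and each library left out in turn. The alternative fits did not cover Ento against AZD.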

Additional observations from a re-analysis of the deposited data

How the results depend on the processing

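Over 147 log2 fold changes against DMSO (49 genes in 3 exposures, CHAC1 and ATF3 included as values without calls), 0 reversed among called values in any alternative, while 37 sign changes concerned values not past the threshold in either fit. Without the replicate block 34 calls were lost, with DESeq2 1 was lost and 4 were gained, without the filter on low counts 1 was lost and 9 were gained, with only the groups compared 10 were lost and 3 were gained, and DESeq2-type size factors changed no call. Scaling moved the median over all genes by less than 0.01 on the log2 scale. When single libraries were left out, 79 calls were lost and 34 gained over all fits, and 8 values of ATF3 and 1 of CHAC1 moved by more than the spread between replicates.

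Without the replicate block the number of called genes of the 47 was 0 for Ento, 4 for AZD, 18 for Ento+AZD (3 higher and 15 lower), 2 for Ento+AZD against Ento and 0 for Ento+AZD against AZD, against 8, 19, 29, 19 and 19 with it. Most calls of each agent, and of Ento+AZD against each agent, were thus lost without the block. For Ento+AZD against DMSO, 18 of 29 remained. The block left the interaction at 0. Under the DEG rule the counts were 1, 2, 6, 1 and 1 in the same order. Without the filter the interaction had 1 call, DDIT4 (adjusted p = 0.00555).

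With each library left out in turn, the count ranged from 3 to 10 for Ento (3 without Ento replicate 1, 4 without Ento replicate 2, 5 without Ento replicate 3), from 9 to 24 for AZD (9 without AZD replicate 2, 10 without AZD replicate 3), and from 25 to 30 for Ento+AZD. It ranged from 11 to 22 for Ento+AZD against Ento (11 without Ento+AZD replicate 1, 12 without Ento replicate 3) and from 6 to 22 for Ento+AZD against AZD (6 without AZD replicate 1, 7 without Ento+AZD replicate 1, 12 without AZD replicate 2 or Ento+AZD replicate 3). The interaction ranged from 0 to 1 (CBS, adjusted p = 0.0282, without DMSO replicate 2). These fits rest on fewer samples. The cause of the other changes was not tested. At 18121993 to 24675830 counts per library, values of ATF3, CHAC1, VLDLR and CTH are limited by counting error, and PHGDH, STC2 and NUPR1 were at or under 3 counts in all.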

Other observations

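VLDLR, the lipoprotein receptor among the 4 genes left out by the filter on low counts, had 7, 3 and 24 counts in DMSO replicates 1 to 3, 4, 4 and 14 counts with Ento, 6, 1 and 7 counts with AZD and 0, 1 and 1 counts with Ento+AZD. In CPM the Ento+AZD libraries, at 0 to 0.0564 CPM, lay below the DMSO libraries, at 0.137 to 0.943 CPM, without overlap. It was not tested, and no fold is given because every Ento+AZD library was under the floor of 3 counts.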
